A study of Drosophila melanogaster with 30 samples.

Results

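The 10 core autophagy genes described here were Atg1, Atg13, Atg17, Atg9, Atg18a, Atg5, Atg7, Atg8a, Atg8b and ref(2)P, taken by symbol from a table of estimated counts for 14326 Drosophila melanogaster genes. All 10 were in the table, and all 10 were among the 13190 genes with enough counts to be tested. In flying pink1 mutants against controls, Atg8b was 1.99-fold higher and Atg17 was lower by 0.83 on the log2 scale. The other 8 members did not pass the test, which 33.2% of all genes tested passed. The controls were 2 libraries, and without control library 2 the log2 fold changes were 0.87 (Atg8b) and -0.52 (Atg17). No member passed the test between flying and non-flying mutants. Of all genes tested, 0% passed between flying and non-flying offspring of the same parent pairs, and 0.326% between flying and all non-flying mutants. Among the mutant libraries, Atg8b ran upward with the summed level of testis transcripts (r = 0.98) and Atg17 downward (r = -0.90). Members that were not called did so too, such as Atg1 (r = -0.87) and Atg13 (r = -0.86), and only Atg8a showed no relation. How many of all genes were related to that sum was not measured.

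Autophagy encloses cytoplasm in a double membrane, the autophagosome, and delivers it to the lysosome for breakdown. A kinase complex starts the process, vesicles carrying Atg9 and effectors of the lipid phosphatidylinositol 3-phosphate build the membrane, and enzymes related to those of ubiquitin transfer attach Atg8 proteins to it, where Atg8 proteins hold cargo receptors such as ref(2)P. Pink1, a kinase on the mitochondrial surface, marks damaged mitochondria for removal by this route (mitophagy), and flies without it have degenerating flight muscle.

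RNA came from pools of whole flies 1 day old, described by the study as male. The 30 libraries made 4 groups, all on a background with the eye-colour mutation w. Group 4 (10 libraries) held w pink1B9 mutants that could fly, group 3 (10 libraries) w pink1B9 offspring of the same parent pairs that could not, group 2 (8 libraries) w pink1B9 offspring of parent pairs that gave no flying offspring, and group 1 (2 libraries) flying w pink1RV controls, which carry a revertant pink1 allele. pink1B9 is a null allele carried in every cell rather than in one tissue, and the labels tie no single library of group 4 to one of group 3. With 2 control libraries, each comparison with controls rests on 2 values per gene, and nothing says that libraries of a group came from separate families, so p-values measure the spread between these libraries only.

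Totals ran between 6434252 and 38330421 estimated counts per library. Levels are given as CPM, counts per 1000000 after scaling by the trimmed mean of M-values (TMM). Pink1 had a lowest, median and highest level of 46.4, 60.3 and 101 CPM in group 4, 51.0, 57.3 and 74.0 CPM in group 3 and 42.5, 55.5 and 60.5 CPM in group 2, against 221 and 270 CPM in the controls, so that its level went with the labels, though it shares 340 exon bases with the antisense gene CG44303. Library 4 of group 4 stood apart, with 6594 CPM summed over 17 ovary markers, against 26.6 to 71.3 CPM in the other 29 libraries. The same library held the 101 CPM of Pink1, where the next highest mutant level was the 74.0 CPM in group 3. Whether this library held females, against the description of males only, was not tested. Tissue labels read human skin for 3 libraries of group 4 and 3 of group 3, which held fly counts like the rest. In whole flies, fewer cells of a type and less RNA per cell cannot be told apart.

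In the BDGP6.54 annotation, a later release than the authors' BDGP6.46, all 10 members were protein-coding. The genes of the kinase complex lay on chromosome arm 3L at 12784429 to 12805116 (Atg1, minus strand), on 3R at 8349815 to 8352817 (Atg13, plus strand) and on 3R at 5669713 to 5679930 (Atg17, plus strand). Atg9 lay on 2R at 16294400 to 16297232 (plus strand), Atg18a on 3L at 8186857 to 8191118 (plus strand), Atg5 on X at 7314622 to 7323770 (minus strand) and Atg7 on 2R at 18620466 to 18625044 (minus strand). Atg8a lay on X at 10764878 to 10768338 (minus strand), and ref(2)P lay on 2L at 19542468 to 19545548 (plus strand). Atg8b, on 3R at 17724410 to 17725063 (minus strand), was a single exon of 654 bases without introns, whereas Atg8a had 5 exon blocks. Only ref(2)P shared exon bases with another gene, 173 of them with CG10337 on the opposite strand. No source used here says whether the counting used strand, so reads of that pair may not be separable.

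Per kilobase of exon, the members fell into a high and a low set. Over the 28 mutant libraries the median level was 263 CPM per kilobase for Atg8a, 171 for Atg8b and 126 for ref(2)P. The remaining 7 members lay between 17.3 CPM per kilobase (Atg18a) and 5.85 (Atg7). The ranges of ref(2)P (95.5 to 245) and Atg18a (12.8 to 22.5) did not overlap, and all other neighbours in the order overlapped. Atg8b exceeded ref(2)P in 23 of 28 mutant libraries, whereas in the controls its 94.8 and 109 CPM per kilobase lay below the 129 and 189 of ref(2)P.

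Atg1 is the kinase of the initiation complex, Atg13 its regulatory partner and Atg17, the fly counterpart of FIP200, its scaffold. Atg17 had a lowest, median and highest level of 37.2, 47.2 and 105 CPM in group 4, 33.8, 56.2 and 71.7 CPM in group 3 and 37.7, 55.3 and 90.2 CPM in group 2, against 77.7 and 116 CPM in the controls. It lay below both controls in 9 of 10 libraries of group 4, all 10 of group 3 and 7 of 8 of group 2, and the exception in group 4 was library 4, with the ovary transcripts. The log2 fold change was -0.83 (SE 0.29, edgeR quasi-likelihood adjusted p = 0.028) in group 4, -0.83 (SE 0.29, adjusted p = 0.034) in group 3 and -0.68 (SE 0.30, adjusted p = 0.10) in group 2. Without control library 2, which held the 116 CPM, the value in group 4 was -0.52 (adjusted p = 0.43) and that in group 3 was -0.52 (adjusted p = 0.46). Without library 4 of group 4 it was -1.02 (adjusted p = 0.0022), and without the libraries labelled human skin it was -0.76 (adjusted p = 0.077). Without control library 1 the value was -1.07 in both groups, larger in size, with an adjusted p of 0.045 in group 4 and of 0.057 in group 3, where leaving out library 5 of group 3 also gave an adjusted p above 0.05 (-0.81, adjusted p = 0.053).

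Atg1 did not pass the test. Its levels were 29.3, 39.8 and 76.4 CPM (lowest, median, highest) in group 4, 29.9, 47.1 and 51.7 CPM in group 3 and 31.6, 45.0 and 68.7 CPM in group 2, against 54.5 and 70.4 CPM in the controls. It lay below both controls in 23 of 28 mutant libraries, including all of group 3. The log2 fold changes were -0.47 (adjusted p = 0.19), -0.52 (0.15) and -0.44 (0.26) for groups 4, 3 and 2, and the first passed in 1 of 12 fits that left out a library, at -0.61 without library 4 of group 4 (edgeR adjusted p = 0.048). Without control library 2 it was -0.28 (adjusted p = 0.69). Atg13 overlapped the controls in every group, at 34.5, 45.1 and 65.1 CPM in group 4, 34.8, 47.8 and 59.4 CPM in group 3 and 31.1, 52.4 and 73.7 CPM in group 2, against 41.5 and 49.6 CPM. Its log2 fold changes of 0.07, 0.06 and 0.19 were smaller than their standard errors (0.24 each).

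Atg9 is the transmembrane protein whose vesicles seed the autophagosome, and Atg18a binds phosphatidylinositol 3-phosphate on the growing membrane. Atg9 was measured at 27.1, 38.5 and 46.8 CPM (lowest, median, highest) in group 4, 27.4, 34.5 and 45.9 CPM in group 3 and 28.3, 33.5 and 44.7 CPM in group 2, against 37.2 and 54.5 CPM in the controls. Atg18a was measured at 42.0, 52.4 and 65.8 CPM in group 4, 37.5, 49.5 and 55.7 CPM in group 3 and 42.4, 50.7 and 61.1 CPM in group 2, against 56 and 64.8 CPM in the controls. Atg18a lay below both controls in 25 of 28 mutant libraries and Atg9 in 17 of 28. Their log2 fold changes ran from -0.41 to -0.23 over the comparisons of each mutant group with controls, and the smallest edgeR adjusted p was 0.11 for Atg9 (group 3) and 0.12 for Atg18a (group 3).

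Atg7 is the E1-like enzyme that activates Atg8 and Atg12, and Atg5 is the protein to which Atg12 is joined. Per kilobase of exon they were the members with the lowest levels. Atg5 had 7.11, 9.15 and 20.1 CPM (lowest, median, highest) in group 4, 5.52, 9.0 and 11.1 CPM in group 3 and 6.97, 8.73 and 13.4 CPM in group 2, against 11.5 and 11.8 CPM in the controls. The mutant libraries fell on both sides of the narrow control range, 24 below it and 4 above it. Atg7 had 11, 13.0 and 20.8 CPM in group 4, 12, 14.0 and 15.7 CPM in group 3 and 11.8, 15.6 and 17.8 CPM in group 2, against 14.2 and 17.8 CPM, and overlapped the controls in each group. The log2 fold changes were -0.18, -0.40 and -0.30 for Atg5 and -0.21, -0.18 and -0.10 for Atg7 in groups 4, 3 and 2, none past the threshold (smallest edgeR adjusted p = 0.27). The fewest reads behind any member's value were an estimated count of 47, for Atg5 in group 2.

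Flies have a pair of Atg8 genes, Atg8a, which acts in autophagy throughout the body, and Atg8b, which is known for expression in the male germ line and a role in male fertility. Atg8b had 87.7, 141 and 177 CPM (lowest, median, highest) in group 4, 82.4, 110 and 170 CPM in group 3 and 55.7, 103 and 176 CPM in group 2, against 62.0 and 71.6 CPM in the controls. All 10 libraries of group 4, all 10 of group 3 and 7 of 8 of group 2 lay above both controls, and library 3 of group 2 lay below both. Groups not overlapping with the controls were found for 29.2% of all genes tested in group 4 (16.5% above them) and 38.2% in group 3 (19.1% above them). No member lay above both controls in all 28 mutant libraries, as 7.75% of all genes did, or below both in all 28, as 6.93% did. The log2 fold change of Atg8b was 0.99 (SE 0.33, edgeR adjusted p = 0.022) in group 4, 0.84 (SE 0.32, adjusted p = 0.052) in group 3 and 0.74 (SE 0.33, adjusted p = 0.10) in group 2. The call in group 4 was lost without control library 1 (1.13, adjusted p = 0.086) and without control library 2 (0.87, adjusted p = 0.21). It was kept without library 4 of group 4 (1.02, adjusted p = 0.015) and without the libraries labelled human skin (0.96, adjusted p = 0.049).

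Atg8a was the steadiest member, with a coefficient of variation of 8.25% over the mutant libraries, against 27.9% for Atg8b. Its levels were 389, 451 and 511 CPM in group 4, 421, 461 and 515 CPM in group 3 and 378, 435 and 506 CPM in group 2, against 378 and 476 CPM in the controls, which overlapped all 3. The log2 fold changes were 0.08 (95% interval -0.16 to 0.31), 0.13 (-0.11 to 0.36) and 0.05 (-0.19 to 0.28). Of the summed counts of both genes, Atg8b took 22.5 ± 4.31% in group 4, 20.4 ± 3.92% in group 3 and 19.9 ± 6.03% in group 2, against 13.7 ± 3.11% in the controls (SD, n = 10, 10, 8 and 2). The exact two-sided permutation test gave p = 0.03 in group 4, the smallest p it can give with 10 against 2, 0.061 in group 3 and 0.22 in group 2, with adjusted p = 0.12, 0.18 and 0.33 over 12 tests.

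The adaptor ref(2)P, the fly counterpart of p62, links ubiquitinated cargo to Atg8a and is itself degraded by autophagy as a protein. It had 232, 302 and 399 CPM (lowest, median, highest) in group 4, 229, 325 and 459 CPM in group 3 and 259, 293 and 588 CPM in group 2, against 309 and 453 CPM in the controls. Each mutant group overlapped the controls, and 15 of 28 mutant libraries lay below both. The log2 fold changes were -0.33 (SE 0.23, edgeR adjusted p = 0.27), -0.24 (SE 0.23, 0.44) and -0.15 (SE 0.23, 0.69) for groups 4, 3 and 2.

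**Figure D1:**
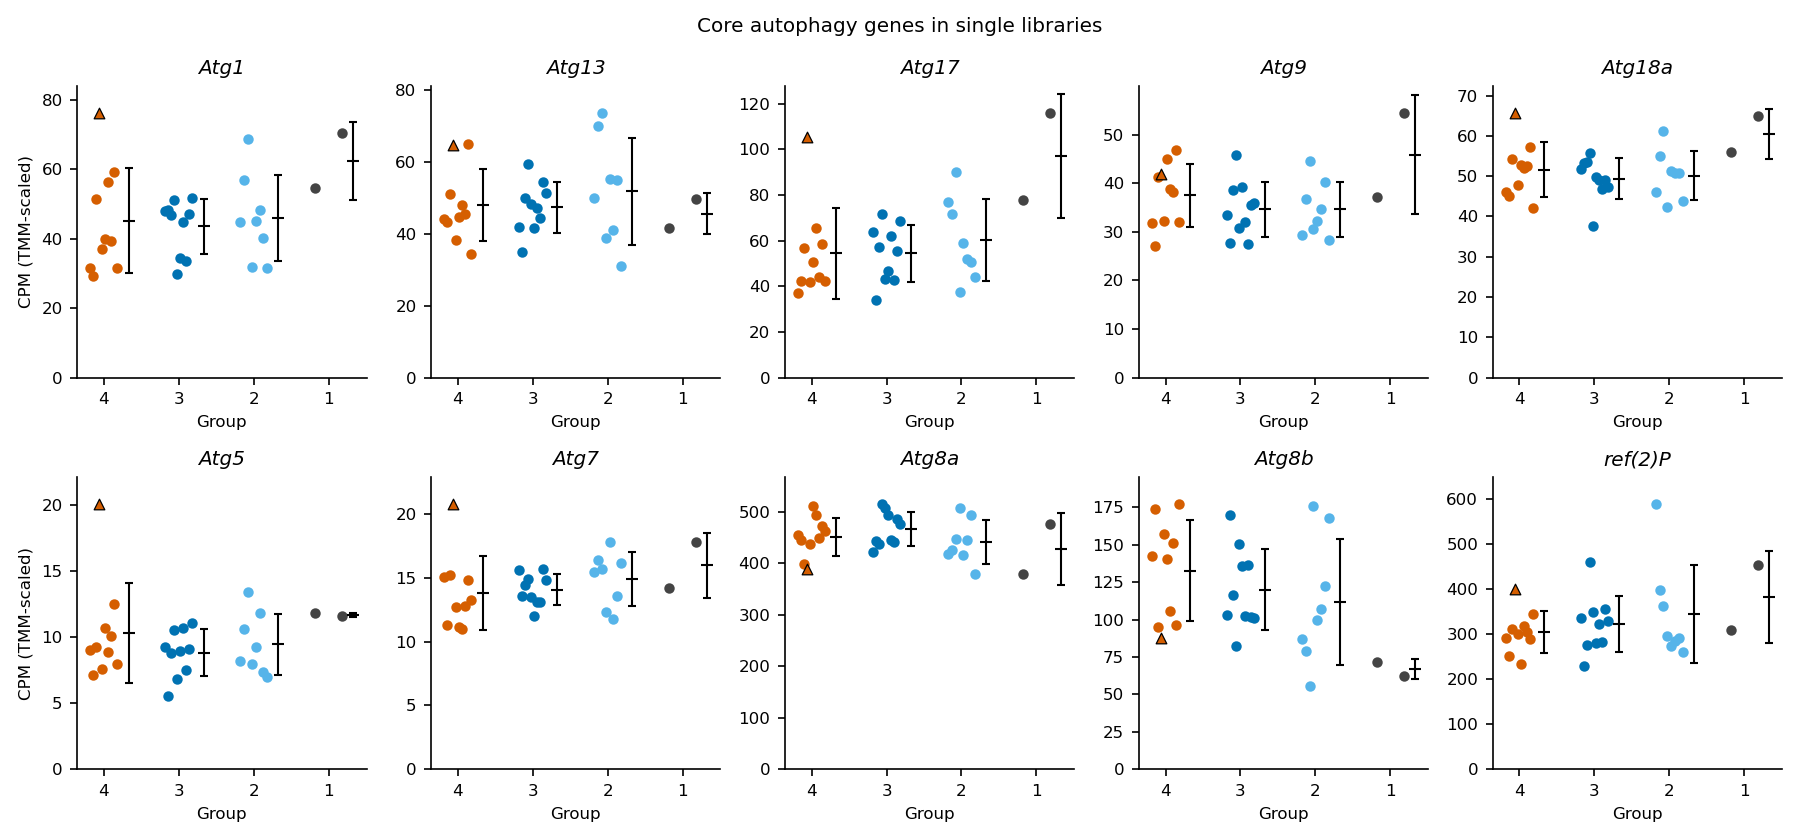
Level of each core autophagy gene in single libraries (CPM, TMM-scaled, axes from 0), with group 4 (flying mutants), group 3 (non-flying, same families), group 2 (non-flying families) and group 1 (controls) from left to right. Points are libraries, the outlined triangle is library 4 of group 4, and bars are mean ± SD. Atg8b lay above both controls in 27 of 28 mutant libraries and Atg17 below both in 26 of 28.

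Counted together, 2 of 10 members passed the threshold in group 4 against controls (1 higher, 1 lower), where 33.2% of all genes tested passed (17.5% higher, 15.7% lower). In group 3 against controls 1 member passed (lower), where 26.5% of all genes did (14.2% higher, 12.3% lower). In group 2 edgeR called 0 of 10, where 20.2% of all genes passed (10.7% higher, 9.52% lower). The share of members called was below that of all genes in each comparison. With an unadjusted edgeR p under 0.05 there were 2, 4 and 3 members in groups 4, 3 and 2, where 43.8%, 40.1% and 35.4% of all genes were counted. Groups did not overlap with the controls for 1 of 10 members in group 4 (Atg8b), 5 of 10 in group 3 (Atg8b above, and Atg1, Atg17, Atg18a and Atg5 below) and 0 of 10 in group 2, where this held for 29.2%, 38.2% and 24.5% of all genes. DESeq2 called 2, 2 and 0 members, where it called 37.5%, 31.5% and 25% of all genes, and limma-voom 2, 2 and 0, where it called 35.6%, 29.9% and 22.1%. The median log2 fold change of the members was -0.22, -0.27 and -0.21 in groups 4, 3 and 2, where that of all genes tested was 0.08, -0.01 and 0.00, and 7 of 10 members lay below 0 in each. These comparisons share the same 2 controls, so their likeness is not independent support. The count in group 4 was 3 without library 4 of group 4, 1 without control library 1 and 0 without control library 2, where the share of all genes called was 43.5%, 16.7% and 8.28%. Leaving out the libraries labelled human skin gave 1 in group 4, where 25.5% of all genes were called, and 0 in group 3, where 19.1% were.

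**Figure D2:**
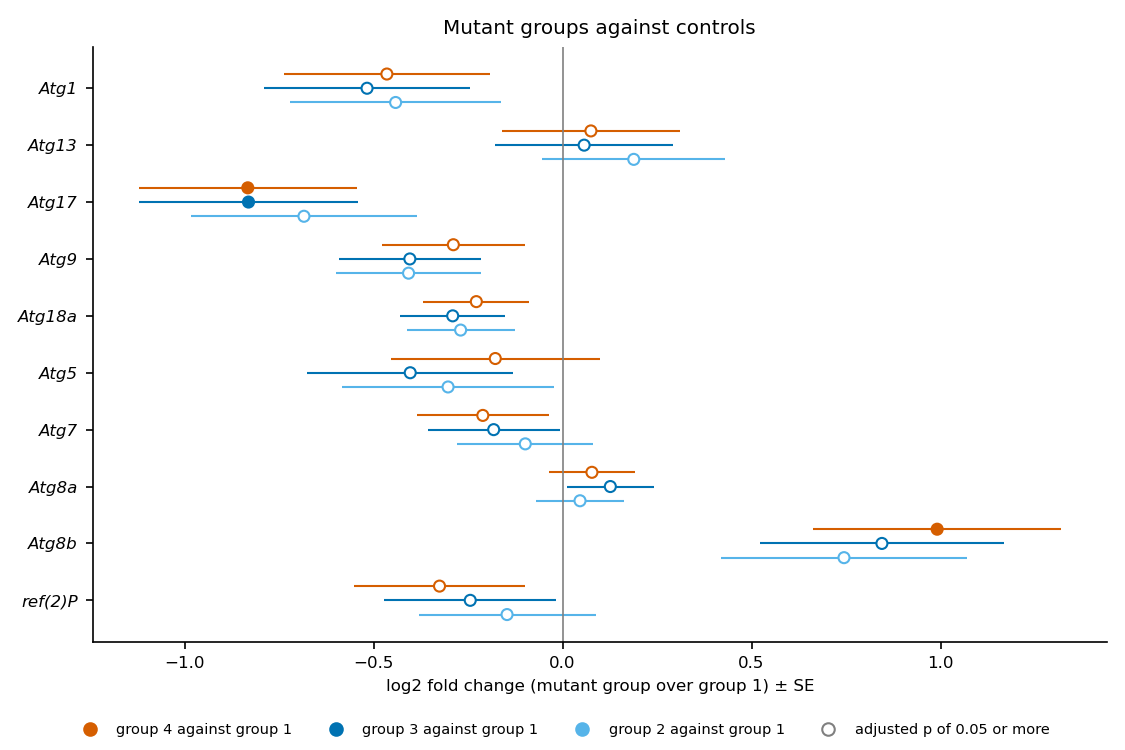
Log2 fold change of each member over group 1 with its standard error, for group 4 (orange), group 3 (dark blue) and group 2 (light blue). Filled points had an edgeR adjusted p under 0.05, which were Atg17 in groups 4 and 3 and Atg8b in group 4.

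No member was called between flying and non-flying mutants. Between group 4 and group 3, offspring of the same parent pairs compared here without pairing, 0 of 10 members passed, as did 0% of all genes tested by edgeR. At an unadjusted p under 0.05 there were 0 members and 1055 genes of 13190 (8%), and over all genes DESeq2 called 1 and limma-voom 0. The largest difference was that of Atg5, at 0.23 on the log2 scale (95% interval -0.11 to 0.56, edgeR adjusted p = 0.72), and that of Atg8b was 0.15 (-0.21 to 0.50). Intervals of the other members were narrower for Atg8a (-0.18 to 0.09) and wider for Atg17 (-0.37 to 0.36), which leaves room for changes of that size. In group 4 against group 2, edgeR called 0 members and 0% of all genes, with 0 members and 12.1% of all genes at an unadjusted p under 0.05, and the largest difference was 0.25 for Atg8b (95% interval -0.13 to 0.63, adjusted p = 0.60). In group 3 against group 2, edgeR called 0 members and 0% of all genes, with 0 members and 1.84% of all genes at an unadjusted p under 0.05, and the largest difference was -0.15 for Atg17 (-0.53 to 0.24). Against all 18 non-flying mutants together, where 0.326% of all genes passed, 0 members passed in the flying mutants, and without adjustment (p under 0.05) 0 members and 13.6% of all genes did. The smallest edgeR adjusted p of a member was 0.58, for Atg5. DESeq2 and limma-voom called 0 members in each of these comparisons.

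Mutant libraries of each group also differed in testis transcripts. The summed level of 18 testis markers, led by betaTub85D and Mst98Ca, was 6368 to 11642 CPM in group 4, 6573 to 11402 CPM in group 3 and 4562 to 11584 CPM in group 2, against 4846 and 5430 CPM in the controls. None of the 18 was at 0 in all libraries of a group. Only 1 of 28 mutant libraries, library 3 of group 2, was at or below the higher control, and it was the library with the lowest Atg8b. All libraries of groups 4 and 3 lay above both controls, with an exact permutation p = 0.03 in each, the smallest possible (adjusted p = 0.12 over 12 tests), whereas group 2 overlapped them (exact permutation p = 0.13, adjusted 0.22). The sum differed between groups 4 and 3 by less than their spread (permutation p = 0.61).

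Across the 28 mutant libraries, log2 levels of 9 of 10 members were related to the log2 testis marker sum, with permutation tests adjusted over 10 relations. Atg8b followed it closely (Pearson r = 0.98, Spearman rho = 0.96, permutation p = 1e-05 for each, the smallest possible, adjusted p = 2e-05), with r = 0.99 within group 4, 0.98 within group 3 and 0.98 within group 2. Without the 2 libraries farthest from the median of the sum, r was 0.98. Atg17 ran against it (r = -0.90, rho = -0.89, permutation p = 1e-05 for each, adjusted p = 2e-05), with r = -0.88, -0.95 and -0.91 within groups 4, 3 and 2 and -0.90 without the 2 farthest libraries. Atg1 (r = -0.87, rho = -0.87) and Atg13 (r = -0.86, rho = -0.85) did the same, each with permutation p = 1e-05 (r = -0.85 for each without the 2 farthest libraries). The others with a negative relation ran from r = -0.73 (Atg5) through -0.72 (Atg18a), -0.65 (Atg9) and -0.53 (ref(2)P) to -0.51 (Atg7), the weakest of them with a permutation p = 0.0057 (adjusted 0.0063). Without the 2 farthest libraries these 5 ran from -0.70 (Atg5) to -0.48 (Atg7). Without library 4 of group 4, rho was -0.46 for Atg7 and -0.50 for ref(2)P. Within groups 4, 3 and 2, r was -0.61, -0.63 and -0.30 for Atg7 and -0.45, -0.70 and -0.45 for ref(2)P. No relation was detected for Atg8a (r = 0.10, rho = 0.09, permutation p = 0.62 and 0.64). CPM are shares of one total per library, so members and marker sum are not independent measures. The share of all genes related to the sum was not measured, so 9 of 10 is not shown to be particular to these members.

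**Figure D3:**
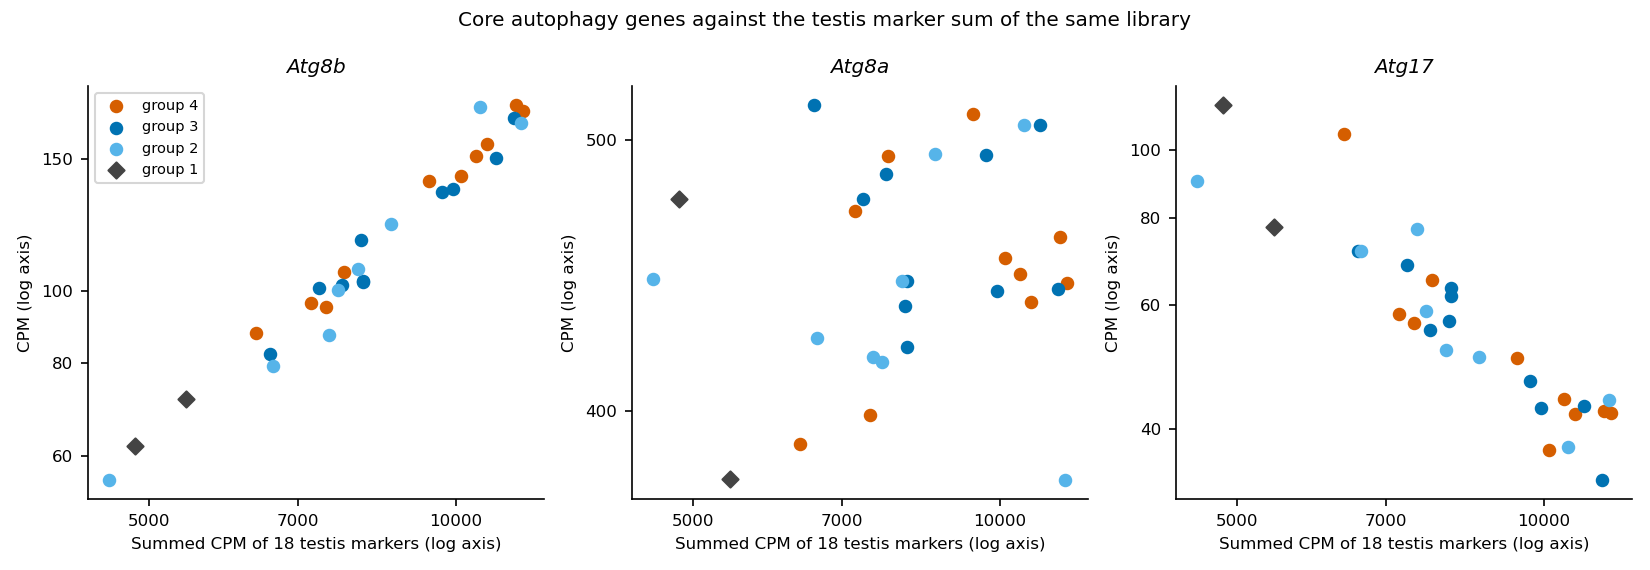
Level of Atg8b, Atg8a and Atg17 (CPM, log axis) against the summed level of 18 testis markers in the same library (CPM, log axis), with groups 4, 3 and 2 as circles and group 1 as diamonds. Atg8b rose with the sum (r = 0.98 over 28 mutant libraries), Atg17 fell with it (r = -0.90) and Atg8a did neither (r = 0.10).

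The level of Atg8b was also set against the testis markers of the same library. Per 1000 CPM of testis markers it had 14.2 ± 0.84 CPM in group 4, 13.6 ± 0.80 CPM in group 3 and 13.5 ± 1.66 CPM in group 2, against 13.0 ± 0.28 CPM in the controls (SD, n = 10, 10, 8 and 2). Exact two-sided permutation tests gave p = 0.091, 0.42 and 0.84 for groups 4, 3 and 2 (adjusted p = 0.20, 0.50 and 0.84 over 12 tests). Such tests cannot go below p = 0.03 with 10 against 2 libraries or 0.044 with 8 against 2, so they do not show that the ratios were alike. With the log2 testis marker sum as a covariate in the edgeR fit, a choice made after this relation was seen, the log2 fold change of Atg8b was -0.09 (SE 0.08, adjusted p = 0.50) in group 4, -0.13 (SE 0.08, adjusted p = 0.31) in group 3 and -0.11 (SE 0.08, adjusted p = 0.38) in group 2.

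In the same fit, the log2 fold change of Atg17 was 0.07, 0.02 and -0.01 in groups 4, 3 and 2. In group 4, 8 of 10 members changed sign, none of the 8 past the threshold (edgeR adjusted p of 0.092 to 0.86). How many of all genes changed sign was not counted. Atg13, which overlapped the controls in plain CPM, was the only member called, at 0.74 (SE 0.15, edgeR adjusted p = 0.0020), 0.68 (SE 0.15, 0.0032) and 0.66 (SE 0.15, 0.0026) in groups 4, 3 and 2, where the fit called 13.8%, 12% and 13.3% of all genes. Both controls lay at the low end of the sum, below 27 of 28 mutant libraries, so these values take the slope seen among mutants beyond most of them.

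**Figure D4:**
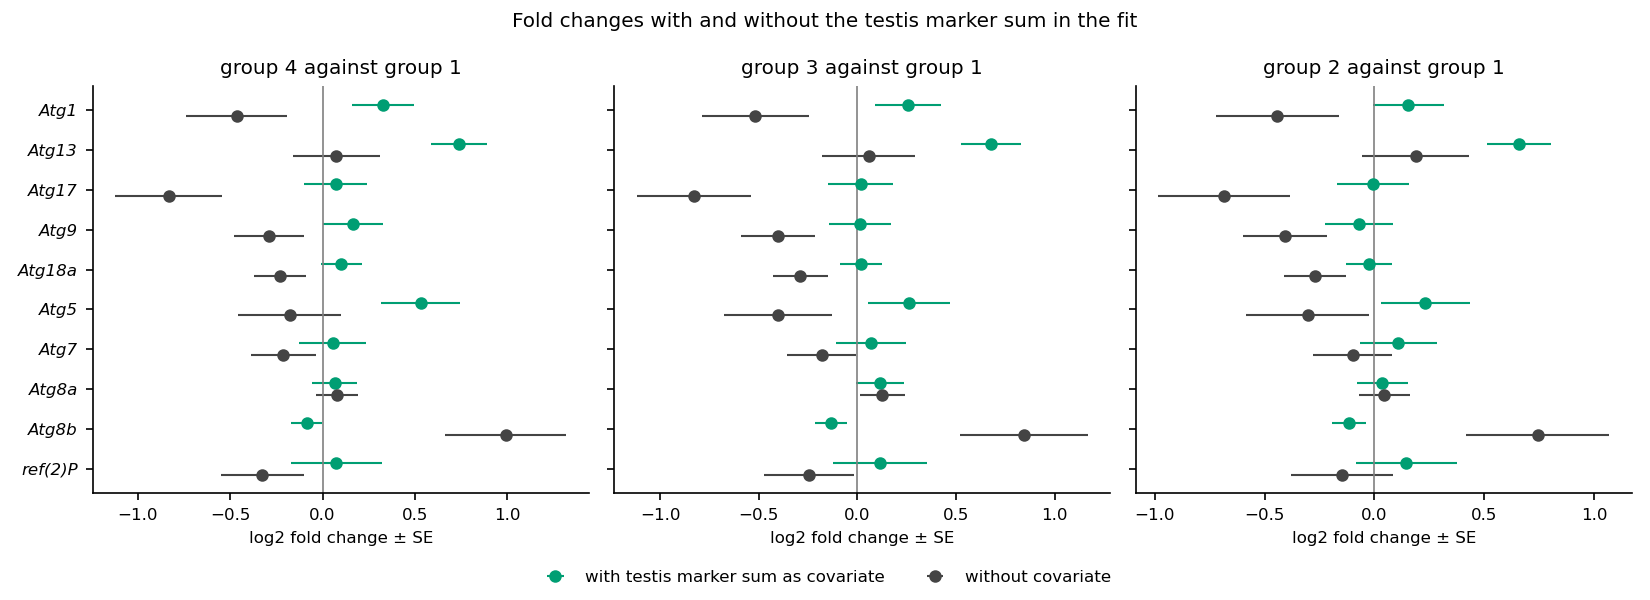
Log2 fold change of each member over group 1 (± SE) with the testis marker sum as a covariate (green) and without it (dark grey), for groups 4, 3 and 2. With the covariate Atg8b and Atg17 lay near 0 (-0.09 and 0.07 in group 4), and Atg13 lay at 0.74, 0.68 and 0.66.

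Markers of other tissues also moved with the groups. Summed photoreceptor markers were 1885 to 6952 CPM in the mutant libraries, against 7161 and 15761 CPM in the controls. Midgut markers were 556 to 3532 CPM in the mutants, against 3347 and 8103 CPM. Flight muscle markers, at 10033 to 36852 CPM in the mutants, overlapped the 10378 and 33803 CPM of control libraries 1 and 2, which themselves differed, and so did fat body markers, at 1712 to 4560 CPM, against 1849 and 4825 CPM. Control library 2 was the higher of the pair for 8 of 10 members, all but Atg5 and Atg8b. The part of these tissues in the members' differences was not tested, apart from the testis markers. Over 40 relations of members with these 4 sums among the mutants, those with an adjusted p under 0.05 for both r and rho follow. The photoreceptor sum was related to Atg17 (r = 0.63, rho = 0.72, permutation p = 0.00035 and 3e-05, adjusted 0.0070 and 0.0012, r = 0.59 without the 2 farthest libraries) and, inversely, to Atg8b (r = -0.65, rho = -0.66, permutation p = 0.00025 and 0.00019, adjusted 0.0070 and 0.0025, r = -0.60 without them). It was also related to Atg1 (r = 0.58, rho = 0.67, permutation p = 0.0012 and 0.00019, adjusted 0.0096 and 0.0025, r = 0.58 without them) and ref(2)P (r = 0.60, rho = 0.50, permutation p = 0.00069 and 0.0075, adjusted 0.0092 and 0.043, r = 0.42 without them). The flight muscle sum was related to Atg9 (r = 0.58, rho = 0.51, permutation p = 0.0010 and 0.0068, adjusted 0.0096 and 0.043, r = 0.50 without the 2 farthest libraries). The fat body sum was inversely related to Atg8b (r = -0.53, rho = -0.50, permutation p = 0.0040 and 0.0069, adjusted 0.027 and 0.043, r = -0.46 without them).

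Among the members themselves, 32 of 45 pairs had a positive Spearman correlation over the 28 mutant libraries, and 29 of 45 had an adjusted permutation p under 0.05. Pairs of other genes were not counted in this way, and all members but Atg8a were also related to the testis marker sum. The 29 pairs are therefore not shown to be particular to these genes. Atg1 and Atg18a were the closest positive pair (r = 0.86, rho = 0.82, permutation p = 1e-05, r = 0.83 without the 2 farthest libraries), and Atg8b and Atg17 the most opposed (r = -0.90, rho = -0.91, permutation p = 1e-05, r = -0.92 without them). Of all genes tested, those most like Atg8b over these libraries were CG31639 (rho = 0.98), CG17377 (0.97), CG31407 (0.97), CG17376 (0.97) and CG30192 (0.97). The patterns most like Atg8a were CG43897 (rho = 0.74), ND-SGDH (0.70) and UQCR-11 (0.68), of which ND-SGDH and UQCR-11 are subunits of respiratory complexes I and III, followed by CHKov1 (0.67) and COX7C (0.67), a subunit of cytochrome c oxidase. For ref(2)P they were CG6428 (rho = 0.81), Ubqn (0.80), the ubiquilin that escorts ubiquitinated proteins to the proteasome, CG3335 (0.79), l(2)k01209 (0.78) and Hmgs (0.78), HMG-CoA synthase. These are the top of 13190 correlations and are given as a description.

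Genes of the rest of the pathway were called in both directions. Of 28 other genes of the autophagy machinery, 5 rose, 7 fell and 16 did not pass in group 4 against controls, with a median log2 fold change of -0.19, where 17.5% of all genes tested rose and 15.7% fell (33.2% in all). Upstream, Atg14, which directs the lipid kinase complex to autophagy, rose (0.48, SE 0.11, edgeR adjusted p = 0.0018), at 44.2 ± 3.01 CPM in group 4 and 31.6 ± 1.25 CPM in the controls (SD, n = 10 and 2). Pi3K59F, the Vps34 kinase of that complex, fell (-0.69, SE 0.19, adjusted p = 0.0086), at 17.3 ± 4.31 CPM in group 4 and 27.9 ± 4.8 CPM in the controls. Atg2, which transfers lipid to the growing membrane, fell (-0.64, adjusted p = 0.030), whereas the Atg8 protease Atg4a (0.37, adjusted p = 0.015) and Atg16 (0.39, adjusted p = 0.031), the partner of Atg5, rose.

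Of 11 genes of fusion with the lysosome, 9 had a fold change below 0, and 4 fell, namely lt (-0.62, edgeR adjusted p = 0.00039), Plekhm1 (-0.63, adjusted p = 0.017), Rab7 (-0.45, adjusted p = 0.021) and dor (-0.57, adjusted p = 0.024), where lt and dor encode subunits of the tethering complexes and Rab7 the GTPase of late endosomes. The SNARE Snap29 (0.37, adjusted p = 0.037), outside the rule for named genes, was the 1 that rose. Among receptors and adaptors, bchs, the fly ALFY, fell (-0.62, adjusted p = 0.0083) and key, the Kenny protein of innate immunity that also binds Atg8a, rose (0.31, adjusted p = 0.024). zda (zonda), a gene of autophagosome formation, is named because the study tested its mutant alleles for flight. Its log2 fold changes were 0.25 (edgeR adjusted p = 0.081), 0.33 (0.031) and 0.30 (0.060) in groups 4, 3 and 2. Between flying and all non-flying mutants it was -0.06 (edgeR adjusted p = 0.61). The study reports better flight of pink1 mutants with heterozygous loss of zda. It chose zda as a gene with lower expression in a model that grouped controls with flying mutants, a comparison not made here.

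Of 19 regulators, 2 rose and 3 fell in group 4 (median -0.36), where edgeR called 33.2% of all genes. DESeq2 called 5 of the 19 and limma-voom 7, where they called 37.5% and 35.6% of all genes. Whether the share of regulators differed from that of all genes was not tested. In nutrient signalling AMPKalpha, the energy-sensing kinase, fell (-0.55, edgeR adjusted p = 0.013), and its activator Lkb1 (0.42, adjusted p = 0.018) and the TOR inhibitor Sesn (0.59, adjusted p = 0.045) rose. The transcription factors Eip75B (-0.73, adjusted p = 0.018) and foxo (-0.56, adjusted p = 0.045) fell, the second of which is known to raise autophagy genes in flies.

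In the lysosome list, 1 of 31 genes rose and 13 fell (median -0.48), where 17.5% of all genes tested rose and 15.7% fell. The hydrolases Hexo1 (-1.01, edgeR adjusted p = 0.00013) and LManI (-2.24, adjusted p = 0.0033) and the cholesterol exporter Npc1a (-0.79, adjusted p = 0.0025) fell, and the glucocerebrosidase Gba1b rose (0.65, adjusted p = 0.0093). LManI averaged 3.60 ± 1.89 CPM in group 4 and 17.1 ± 16.4 CPM in the controls, which differed widely from each other. Of 17 proton pump genes, 7 fell and none rose, led by Vha100-1 (-0.62, adjusted p = 0.0038), ATP6AP2 (-0.69, adjusted p = 0.012), Vha100-2 (-1.0, adjusted p = 0.016) and VhaSFD (-0.49, adjusted p = 0.017).

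These calls changed with single libraries and with the testis covariate. In group 4, the calls in the machinery, regulator and lysosome lists numbered 12, 5 and 14, against 18, 8 and 17 without library 4 of group 4, 5, 3 and 9 without control library 1 and 1, 0 and 2 without control library 2. With the testis marker sum as covariate they numbered 3, 3 and 1, where that fit called 13.8% of all genes, and the medians were 0.09, 0.22 and 0.07. Counts in group 3 were 4 higher and 5 lower of 28, 1 and 1 of 19 and 1 and 7 of 31, and in group 2 they were 2 and 2, 1 and 1, and 1 and 7. The shares of all genes called higher and lower were 14.2% and 12.3% in group 3 and 10.7% and 9.52% in group 2. Between groups 4 and 3 no gene of the 3 lists was called. The same fit without covariate called 33.2% of all genes in group 4, 16.7% without control library 1 and 8.28% without control library 2.

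**Figure D5:**
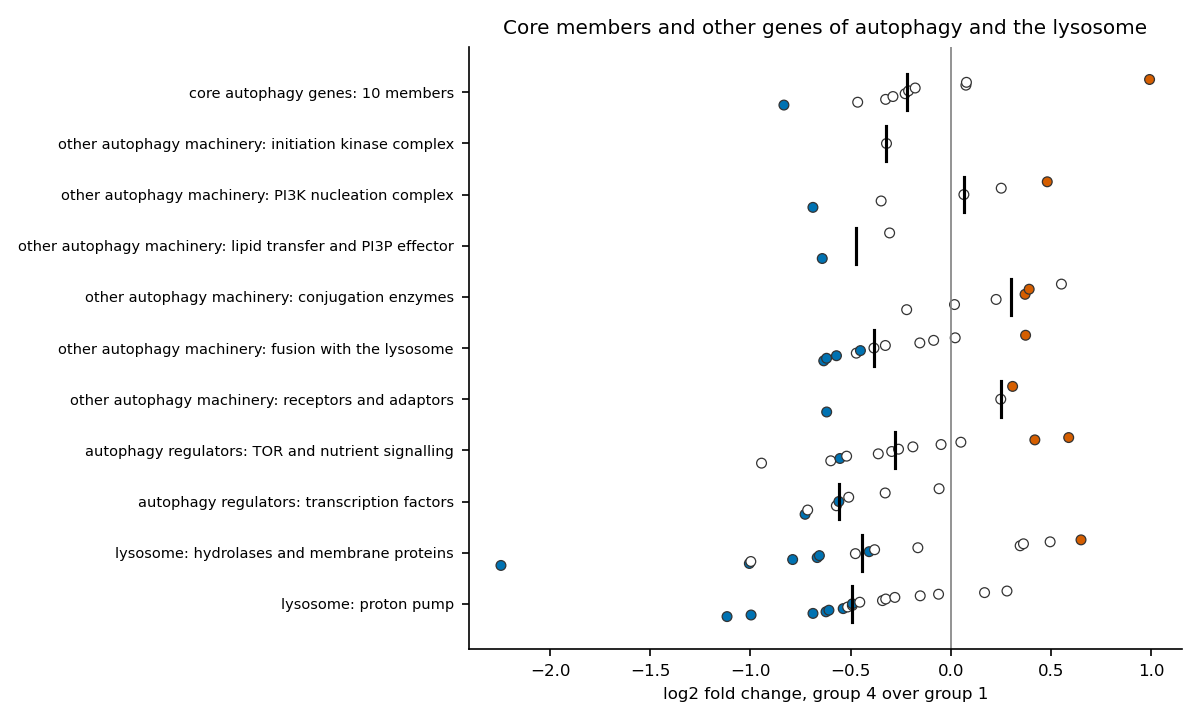
Log2 fold change in group 4 over group 1 of the 10 core members and of 78 other genes of autophagy, its regulation and the lysosome, by role. Orange points rose and dark blue points fell at an edgeR adjusted p under 0.05, open points did not pass, and vertical lines are medians. Proton pump genes were called lower in 7 of 17 cases and higher in none.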

How the data were processed

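RNA of whole flies was made into stranded total-RNA libraries. The authors trimmed reads with fastp 0.23.4, assigned them with kallisto 0.44.0 to BDGP6.46 transcripts and used tximport 1.26.1, whereas the labels name kallisto 0.45.0 and GRCh38. The deposited table holds estimated counts per gene, rounded here to whole numbers. The paper names length-scaled counts for its own tests, and whether the deposited ones are such has no statement in the sources used here. Rows of ribosomal RNA took 0.22 to 2.74% of counts. No libraries were duplicates, since any 2 differed in at least 13327 genes.

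One edgeR 4.0.16 quasi-likelihood fit (R 4.3.3) took all 30 libraries with TMM factors, filterByExpr, 1 coefficient per group and no covariate. The comparison of flying with all non-flying mutants took a fit with groups 2 and 3 together. P-values were adjusted by Benjamini-Hochberg over 13190 genes, threshold 0.05. CPM are TMM-scaled, and log2 CPM add 1. Correlations used 100000 permutations. The alternatives run were another count test (DESeq2 1.42.0), voom weights in limma 3.58.1, other scaling factors and filters, fewer groups or libraries, and the testis covariate. Each member had an estimated count of at least 47 per library, and the errors given are those between libraries.

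Members and lists were chosen with earlier results of these data known. Named were all 10 members, in the other lists up to 4 called genes per role with the smallest p in group 4 against group 1, and for Atg8a, Atg8b and ref(2)P the 5 genes with the highest Spearman correlation. All 173 listed symbols matched, and 169 were tested, 4 ovary markers being too low. Annotation came from BDGP6.54, where 14105 of 14326 symbols matched.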

Additional observations from a re-analysis of the deposited data

Results flagged for a closer look

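In 5 of 30 sets of libraries (10 members in groups 4, 3 and 2) the highest or lowest library lay farther from the rest than Dixon's 95% limit, where chance alone gives about 1 in 20. Library 4 of group 4, the one with ovary transcripts, was the highest for Atg17 (105 CPM, next 65.3), Atg5 (20.1 CPM, next 12.5) and Atg7 (20.8 CPM, next 15.3). Library 5 of group 3 was the lowest for Atg18a (37.5 CPM, next 46.9). Library 1 of group 2 was the highest for ref(2)P (588 CPM, next 398).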

How the results depend on the processing

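No paired analysis was made, because the labels tie no library of one group to a library of another and give no replicate number. The library numbers used here follow the order of the library names within each group. In group 4 against group 1, 2 members were called, and 1 was called without the libraries labelled human skin (Atg8b, 25.5% of all genes called), with only the groups compared (Atg8b, 24.8%) and with the testis covariate (Atg13, 13.8%). Leaving out single libraries gave 0 to 3. In group 3 against group 1, 1 member was called, with 2 by DESeq2 (31.5% of all genes), 2 by limma-voom (29.9%, Atg17 and Atg8b in each), 0 without the libraries labelled human skin (19.1%) and 3 with only the groups compared (Atg1 added, 37.6%). Leaving out single libraries gave 0 to 2. In group 2 against group 1, 0 were called (3 at an unadjusted p under 0.05, 0 by DESeq2 and by limma-voom), with 1 under the testis covariate (13.3% of all genes) and 0 to 2 without single libraries, the 2 without library 3 of group 2 (28.4%). All comparisons among mutants stayed at 0 under each alternative run.

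With the testis covariate, chosen after seeing the data, log2 fold changes of opposite sign were found in group 4 for Atg1 (0.33), Atg17 (0.071), Atg9 (0.16), Atg18a (0.10), Atg5 (0.53), Atg7 (0.056), Atg8b (-0.086) and ref(2)P (0.074). In group 3 these were Atg1 (0.26), Atg17 (0.016), Atg9 (0.013), Atg18a (0.019), Atg5 (0.26), Atg7 (0.068), Atg8b (-0.13) and ref(2)P (0.12), and in group 2 Atg1 (0.16), Atg5 (0.23), Atg7 (0.11), Atg8b (-0.11) and ref(2)P (0.15). Between groups 4 and 3, Atg17 (-0.0019) turned to 0.017 with DESeq2, 0.016 with RLE factors, 0.0096 with total counts alone, 0.074 without the libraries labelled human skin, 0.013 with only the groups compared and 0.054 with the covariate, and Atg13 turned to -0.0027 with limma-voom.

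Without single libraries, values near 0 changed sign. In group 4 against group 1 the ranges were -0.026 to 0.20 (Atg13), -0.52 to 0.0023 (Atg9) and -0.054 to 0.24 (Atg8a), in group 3 -0.043 to 0.18 (Atg13), -0.0069 to 0.29 (Atg8a) and -0.47 to 0.052 (ref(2)P), and in group 2 -0.23 to 0.071 (Atg7), -0.087 to 0.22 (Atg8a) and -0.37 to 0.15 (ref(2)P). Between groups 4 and 3 they were -0.045 to 0.11 (Atg1), -0.041 to 0.063 (Atg13), -0.14 to 0.050 (Atg17) and -0.094 to 0.0037 (Atg7). Apart from what the alternatives themselves remove or add, the cause was not tested. With 1 control left, it is assumed to vary like the other groups.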
